A study of Mus musculus with 6 samples.

Results

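Glycogen is the branched glucose store of animal cells, and 9 genes for the enzymes that build it or break it down were followed in cultured microglia kept at low oxygen. Of 30176 named genes on the arrays, these 9 are Gyg, Gys1, Gbe1, Ugp2 and Pgm1, grouped as glycogen-building, and Pygl, Pygb, Phka1 and Phkb, grouped as glycogen-degrading. They were chosen by gene symbol, and where a gene had several array rows the rule took the row selected on its mean over the 6 arrays. Each of the 9 had 1 row, so that mean decided nothing here. The list itself was drawn up with the hypoxia results of Gys1 and Pgm1 already known, so the counts below describe the 9 genes and are not independent support for any pattern.

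Primary microglial cultures came from P0 CD1 mouse pups, an outbred stock with no transgene named in the labels, and 5 pups were pooled for each culture. Cultures numbered 3, 4 and 6 each appear once under normoxia, meaning 21% oxygen, and once under hypoxia, meaning 1% oxygen, with an exposure of 6 h. Total RNA of every culture and condition was put on 1 array, so precision is limited by the 6 arrays, 3 in a group. A pool of pups is a single replicate here, so differences between animals are not seen.

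Glucose enters glycogen in a fixed order. Phosphoglucomutase turns glucose 6-phosphate into glucose 1-phosphate, UDP-glucose pyrophosphorylase activates it, glycogenin starts a chain, glycogen synthase lengthens it and the branching enzyme adds branch points. Glycogen phosphorylase removes glucose units as glucose 1-phosphate, and phosphorylase kinase switches phosphorylase on. In brain tissue glycogen is known mostly from astrocytes, and several genes of glycogen synthesis are known targets of hypoxia-inducible factor (HIF), the transcription factor that cells stabilise when oxygen is low.

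The DNA around their start sites is shown first, since Gys1 and Pgm1 both rose at low oxygen while others of the 9 genes, such as Gyg and Ugp2, did not pass the test. HIF binds DNA at a core that can read ACGTG or GCGTG. Both words were searched on both strands of RefSeq windows of GRCm38.p6 that run from 250 bases before to 50 bases after a gene's start. Overlapping matches were counted separately, so CACGTG counts once on each strand. In the lines that follow, matched bases are in capitals and each window reads 5′ to 3′ along its gene. They are Gys1 (chr7:45434589-45434888, plus strand), Pgm1 (chr4:99929201-99929500, plus), Gbe1 (chr16:70313699-70313998, plus), Pygl (chr12:70227634-70227933, minus), Pygb (chr2:150786546-150786845, plus) and the upstream one of 2 windows of Ugp2 (chr11:21371218-21371517, minus). The first 4 belong to the genes that differed most between the conditions, and the last 2 to genes that differed little.
Gys1: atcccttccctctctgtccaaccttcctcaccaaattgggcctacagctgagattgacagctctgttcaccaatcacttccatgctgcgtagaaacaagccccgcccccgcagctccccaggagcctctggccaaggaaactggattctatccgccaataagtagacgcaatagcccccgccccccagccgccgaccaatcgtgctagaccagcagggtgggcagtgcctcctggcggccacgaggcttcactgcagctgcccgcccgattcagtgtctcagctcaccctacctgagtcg
Pgm1: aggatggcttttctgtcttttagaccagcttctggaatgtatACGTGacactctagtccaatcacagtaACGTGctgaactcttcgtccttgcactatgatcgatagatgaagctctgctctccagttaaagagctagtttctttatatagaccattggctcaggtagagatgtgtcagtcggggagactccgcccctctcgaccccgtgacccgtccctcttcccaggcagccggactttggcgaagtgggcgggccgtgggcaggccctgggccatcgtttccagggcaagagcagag
Gbe1: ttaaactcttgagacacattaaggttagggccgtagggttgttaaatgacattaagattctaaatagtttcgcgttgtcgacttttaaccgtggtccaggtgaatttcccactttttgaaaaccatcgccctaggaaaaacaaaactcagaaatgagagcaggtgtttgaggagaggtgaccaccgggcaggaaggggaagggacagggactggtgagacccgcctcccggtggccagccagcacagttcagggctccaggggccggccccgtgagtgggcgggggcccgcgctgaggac
Pygl: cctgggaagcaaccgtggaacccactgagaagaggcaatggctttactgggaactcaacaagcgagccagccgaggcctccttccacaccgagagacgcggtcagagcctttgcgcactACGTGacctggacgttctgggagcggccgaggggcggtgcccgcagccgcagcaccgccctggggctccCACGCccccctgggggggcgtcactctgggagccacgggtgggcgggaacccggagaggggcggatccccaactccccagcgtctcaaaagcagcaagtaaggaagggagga
Pygb: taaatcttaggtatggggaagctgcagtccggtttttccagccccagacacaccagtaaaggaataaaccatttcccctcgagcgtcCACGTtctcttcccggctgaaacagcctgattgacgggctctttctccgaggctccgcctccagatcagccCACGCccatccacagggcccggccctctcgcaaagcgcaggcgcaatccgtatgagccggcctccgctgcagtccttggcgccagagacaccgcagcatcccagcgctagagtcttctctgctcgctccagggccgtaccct
Ugp2: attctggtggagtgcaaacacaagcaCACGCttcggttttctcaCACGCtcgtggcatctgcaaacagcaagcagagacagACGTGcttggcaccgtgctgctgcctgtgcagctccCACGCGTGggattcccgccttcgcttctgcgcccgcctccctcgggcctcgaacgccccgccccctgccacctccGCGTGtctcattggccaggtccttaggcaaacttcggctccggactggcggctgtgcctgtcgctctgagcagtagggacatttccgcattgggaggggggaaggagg

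The Pgm1 window held ACGTG starting 208 and 181 bases before the start site, both on the strand of the gene. Neither word occurred in the windows of Gys1 and Gbe1. Pygl held 1 ACGTG and 1 GCGTG, and so did Pygb. The upstream Ugp2 window held 1 ACGTG and 5 GCGTG, and its other window held none. Among the genes whose windows are not printed, Gyg held 2 overlapping ACGTG, 1 on each strand, and 1 GCGTG, Phka1 held 2 GCGTG and Phkb 1. Of the 9 genes, 5 had ACGTG in at least 1 window and 7 had either word. Of all 27025 genes in the table, 21.8% had ACGTG in at least 1 window and 46.7% had either word. Of the 32851 windows, 19.6% held ACGTG and 43.8% held either word. A match in a window is not a binding site, and a window without a match says only that these letters are not in it.

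At 1% oxygen, transcripts of Gys1 (glycogen synthase) and Pgm1 (phosphoglucomutase) were 3.63-fold and 2.91-fold higher, while Gyg (glycogenin) and Ugp2 (UDP-glucose pyrophosphorylase) were at 0.932 and 1.08 times their normoxic level. Among the degrading genes, the liver-type phosphorylase Pygl was at 1.61 times its normoxic level. The brain-type phosphorylase Pygb and the phosphorylase kinase subunits Phka1 and Phkb were at 1.05, 1.03 and 0.884 times theirs. The arrays measured whole cultures, in which fewer cells of a type and less RNA per cell cannot be told apart. At an adjusted p under 0.05 from limma over all genes, 2 of the 9 genes, Gys1 and Pgm1, were called higher and 0 lower. Over all 30176 genes, 0.209% were called higher and 0.0166% lower. With the culture as a block, which compares the arrays within each culture, Pygl was called as well, making 3 higher and 0 lower, against 0.421% and 0.116% of all genes. Members of the list were picked with this comparison known, so these shares are set side by side only. The median log2 fold change was 0.11 over the 9 genes and 0.03 over all genes.

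**Figure D1:**
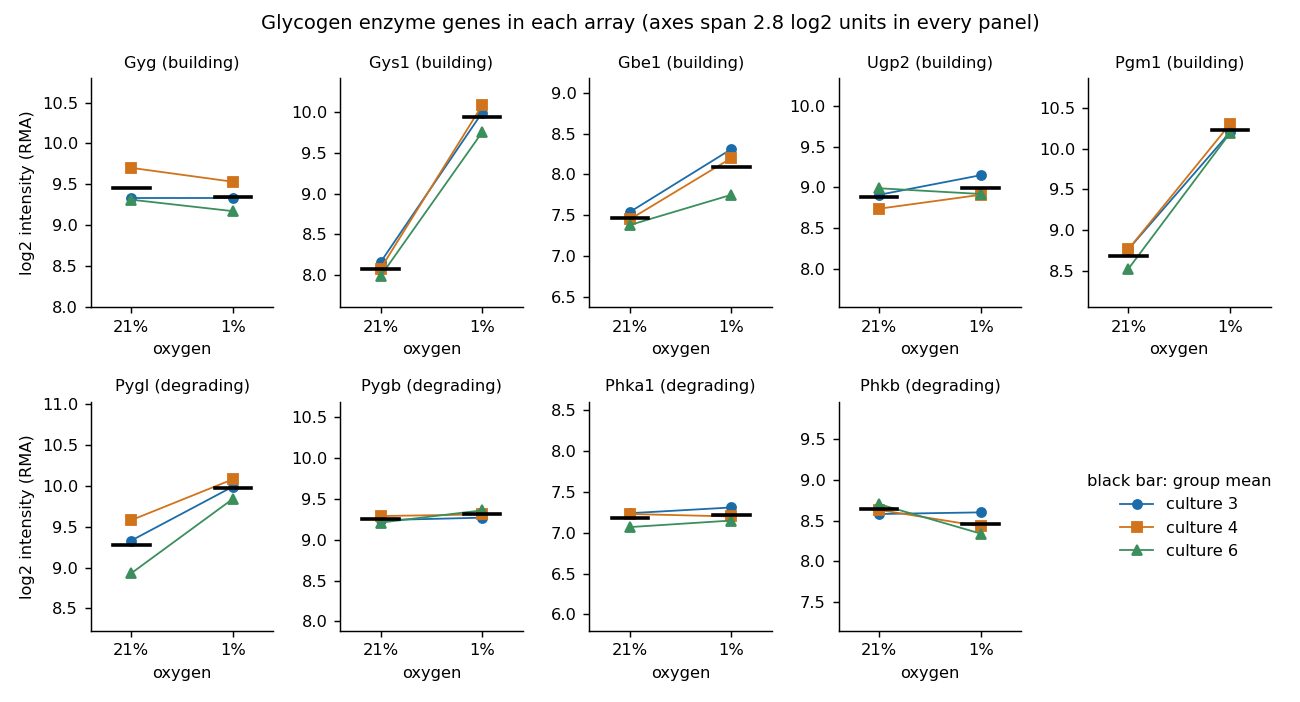
Log2 intensity of each glycogen enzyme gene at 21% and 1% oxygen, with 1 line per culture and black bars for the group means of 3 arrays. Gys1, Pgm1, Gbe1 and Pygl have every hypoxia array above every normoxia array, and the groups of the other 5 genes overlap.

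Gys1 encodes the muscle-type glycogen synthase, the form used by most tissues outside the liver. In GRCm38 it spans bases 45434839 to 45456617 of chromosome 7. At 21% oxygen cultures 3, 4 and 6 read 8.16, 8.08 and 7.99 on the log2 scale, and at 1% oxygen they read 9.99, 10.08 and 9.75. The groups did not overlap, with 1.59 log2 units between the highest normoxia and the lowest hypoxia array. The means were 8.08 ± 0.08 and 9.94 ± 0.17 (SD, n = 3 cultures each). They differed by 1.86 log2 units with a standard error of 0.10 (limma, adjusted p = 0.000517). This is a 3.63-fold increase with a 95% interval of 3.10 to 4.26. Ordered by fold change from the highest, Gys1 had rank 6 of 30176 genes.

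Pgm1 encodes the phosphoglucomutase that interconverts glucose 6-phosphate and glucose 1-phosphate. The enzyme works in both directions, so it serves synthesis and breakdown alike, and it is counted with the building genes only by the grouping used here. The gene lies on chromosome 4 from 99929451 to 99987294 and was written Pgm2 in older mouse annotation. The arrays read 8.77, 8.77 and 8.53 in normoxia and 10.20, 10.30 and 10.19 in hypoxia, in the order of cultures 3, 4 and 6. All hypoxia arrays again lay above all normoxia arrays. Pgm1 rose by 1.54 on the log2 scale (standard error 0.09, adjusted p = 0.000517 from limma), or 2.91-fold with an interval of 2.53 to 3.34, and had rank 15. Within cultures the difference was 1.43, 1.53 and 1.66, and that of Gys1 was 1.83, 2.0 and 1.76.

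Gbe1 encodes the branching enzyme (chromosome 16, 70313949 to 70569720). Its log2 intensity was 7.54, 7.45 and 7.38 in normoxia and 8.31, 8.20 and 7.75 in hypoxia. The hypoxia array of culture 6 was the lowest of its group but still above the normoxia arrays, and the difference in that culture was 0.37, against 0.77 and 0.75 in cultures 3 and 4. The log2 fold change was 0.63 (95% interval 0.30 to 0.96), with an adjusted p of 0.274, and of 0.0623 with the culture as a block, both from limma. Without the hypoxia array of culture 6 the value was 0.80 and the adjusted p 0.0482. A difference was therefore present in all 3 cultures but did not pass the threshold over all genes.

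Gyg and Ugp2 complete the building genes. Gyg encodes glycogenin, the protein primer of new glycogen chains, and read 9.33, 9.70 and 9.31 in normoxia and 9.33, 9.53 and 9.17 in hypoxia. Culture 4 was the highest in both conditions, and its distance from the other cultures was larger than the difference between conditions, which was -0.10 (95% interval -0.41 to 0.21, adjusted p = 0.786 from limma). That interval includes the spread between cultures. With the culture as a block the standard error was 0.07 against 0.13 without it, and the adjusted p from limma was 0.482. Ugp2 encodes UDP-glucose pyrophosphorylase, which makes the activated glucose that the synthase uses. Its arrays read 8.91, 8.74 and 8.99 in normoxia and 9.15, 8.91 and 8.92 in hypoxia, and the groups overlapped. The log2 fold change was 0.11 (95% interval -0.11 to 0.34, adjusted p = 0.695 from limma), and the intervals of Gys1 and Pgm1 lay wholly above that of Ugp2.

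Pygl encodes the liver-type glycogen phosphorylase (chromosome 12, 70190815 to 70227683). Cultures 3, 4 and 6 read 9.33, 9.58 and 8.93 in normoxia and 9.99, 10.08 and 9.84 in hypoxia. The groups did not overlap. In normoxia the cultures spread over 0.65 log2 units, the widest range of the 9 genes, and culture 6, the lowest there, showed the largest difference, 0.92 against 0.65 and 0.50. The log2 fold change was 0.69 (95% interval 0.33 to 1.05), with an adjusted p of 0.278 without the block and 0.0457 with it, both from limma. The standard error was 0.16 without the block and 0.09 with it. Across the other alternatives the adjusted p of Pygl lay between 0.0780 and 0.744, so its call rests on taking the difference within cultures.

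The other phosphorylase, Pygb, is named for the brain. Its log2 intensity was 9.24, 9.29 and 9.21 in normoxia and 9.27, 9.31 and 9.36 in hypoxia, a log2 fold change of 0.07 (95% interval -0.09 to 0.22, adjusted p = 0.726 from limma). Within each of the 3 cultures Pygl differed by more than Pygb, whose differences were 0.04, 0.02 and 0.15 in cultures 3, 4 and 6. Pygm, the muscle-type phosphorylase, had a log2 fold change of 0.04 (95% interval -0.14 to 0.23). No test of the difference between these genes was run, since they were set against each other with their values known.

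Phosphorylase kinase phosphorylates and thereby activates phosphorylase. Phka1 encodes its muscle-type alpha subunit and Phkb its beta subunit, both regulatory. Phka1 read 7.24, 7.23 and 7.07 in normoxia and 7.31, 7.20 and 7.15 in hypoxia, a log2 fold change of 0.04 (95% interval -0.14 to 0.23). Phkb read 8.58, 8.63 and 8.70 in normoxia and 8.60, 8.43 and 8.34 in hypoxia, with differences of 0.02, -0.20 and -0.36 within cultures 3, 4 and 6. Its log2 fold change was -0.18 (95% interval -0.38 to 0.02, adjusted p = 0.524, and 0.361 with the block, from limma), and the groups overlapped. Hypoxia arrays lay above all normoxia arrays for 4 of the 9 genes, as they did for 8.24% of all genes, and below them for 0, against 7.58% of all genes.

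The 2 groups of genes were compared by their differences within each culture, because levels of separate array rows cannot be set against one another. The mean log2 difference of the 5 building genes was 0.85, 0.86 and 0.71 in cultures 3, 4 and 6. That of the 4 degrading genes was 0.20, 0.07 and 0.20. The building genes thus exceeded the degrading genes by 0.66, 0.78 and 0.52 (computed before rounding), or 0.65 ± 0.13 (SD, n = 3 cultures), given with no test. Other groupings, chosen after the values were seen, gave smaller values. With Pgm1, whose enzyme works in both directions, in neither group the excess was 0.47 ± 0.17. With Gys1 and Pgm1, the building genes with the largest differences, in neither group it was 0.06 ± 0.18. Within cultures 3, 4 and 6 that value was 0.14, 0.18 and -0.14, so culture 6 went the other way. With Pygl, the degrading gene with the largest difference, left out as well the excess was 0.24 ± 0.12. Leaving out the highest genes of a group lowers its mean by construction. The ranges of fold changes of the groups overlapped, from -0.10 to 1.86 for building and from -0.18 to 0.69 for degrading genes.

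**Figure D2:**
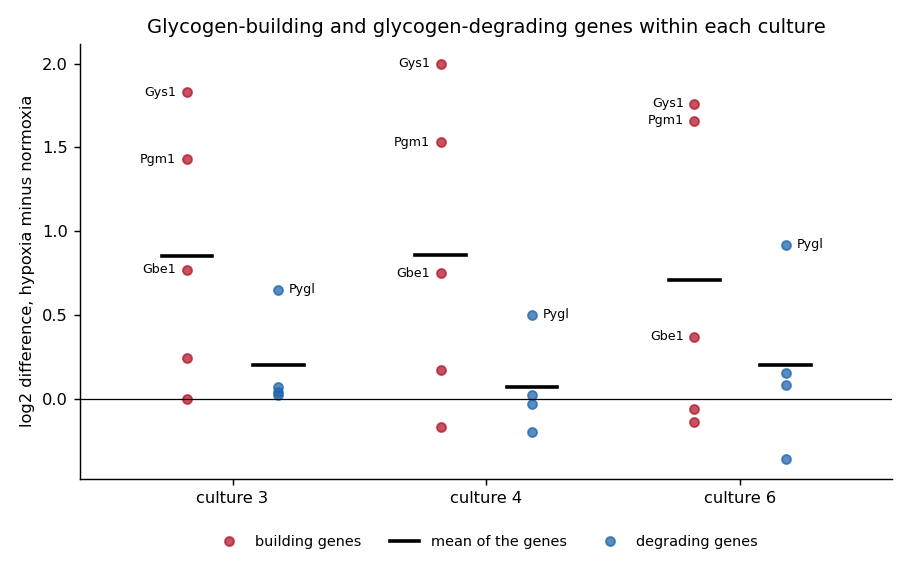
Log2 difference between the hypoxia and normoxia array of each culture, for 5 building genes (red) and 4 degrading genes (blue), with black bars for the mean of each group of genes. The bars of the building genes lie at 0.85, 0.86 and 0.71 and those of the degrading genes at 0.20, 0.07 and 0.20, with Gys1 at 1.76 to 2.0, Pgm1 at 1.43 to 1.66 and Pygl, the highest degrading gene, at 0.50 to 0.92.

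The enzymes work under the control of other proteins, and 35 further genes were listed, of which 30 were analysed here. At an adjusted p under 0.05 from limma, 3 of the 30 rose and 0 fell, both without and with the block. Over all genes 0.209% were called higher and 0.0166% lower without the block, and 0.421% and 0.116% with it. The median over the 30 was 0.04 on the log2 scale, against 0.03 over all genes. The count of 3 fell to 0 without the normoxia or without the hypoxia array of culture 6. The risen genes were Ppp1r3b, Epm2a and Slc37a4.

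Ppp1r3b encodes a subunit that brings protein phosphatase 1 to glycogen, where the phosphatase activates glycogen synthase and inactivates phosphorylase. Its log2 intensity was 6.82, 6.96 and 6.95 in normoxia and 7.62, 7.98 and 7.74 in hypoxia, with no overlap, a difference of 0.87 log2 units with a standard error of 0.10 (limma, adjusted p = 0.0194). The call was lost without any 1 of the normoxia arrays or without the hypoxia array of culture 6, with adjusted p from 0.0759 to 0.101. Ppp1r3c, a related targeting subunit also called PTG, read 5.12, 5.42 and 5.41 in normoxia and 6.20, 6.22 and 5.67 in hypoxia. Its groups did not overlap either, but with a difference of 0.26 in culture 6 against 1.08 and 0.80 the log2 fold change of 0.71 had an adjusted p of 0.268, and of 0.111 with the block. The remaining 5 subunits of this family, Ppp1r3a, Ppp1r3d, Ppp1r3e, Ppp1r3f and Ppp1r3g, had log2 fold changes of 0.01 to 0.12. Of these, Ppp1r3a (3.21 in normoxia and 3.27 in hypoxia) and Ppp1r3e (5.75 and 5.79) had group means below the median of all features, 5.89. Ppp1r3c was dim as well, with a mean of 5.32 in normoxia, below that median, and of 6.03 in hypoxia.

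Epm2a encodes laforin, a phosphatase that removes phosphate from glycogen and whose loss in humans leads to Lafora disease. It went from 7.11, 7.44 and 6.84 to 8.32, 8.32 and 8.18, a difference of 1.14 log2 units with a standard error of 0.14 (limma, adjusted p = 0.0256). Every hypoxia array lay above the normoxia arrays. The call was lost without any single array other than the normoxia array of culture 4 (adjusted p 0.0503 to 0.124) and after median centring (0.0530). Nhlrc1, which encodes malin, the partner of laforin in the same disease, had a log2 fold change of 0.02. Slc37a4 carries glucose 6-phosphate into the endoplasmic reticulum, and it went from 7.58, 7.48 and 7.50 to 8.16, 8.37 and 8.24. Slc37a4 rose by 0.74 log2 units with a standard error of 0.08 (limma, adjusted p = 0.0130), and it lost its call without the normoxia or the hypoxia array of culture 4 or of culture 6 (0.0565 to 0.0894). The phosphatase genes that act on the same pool, G6pc1 (written G6pc in the annotation) and G6pc3, had values of 0.10 and 0.01. G6pc1 was dim, with group means of 4.81 in normoxia and 4.92 in hypoxia.

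**Figure D3:**
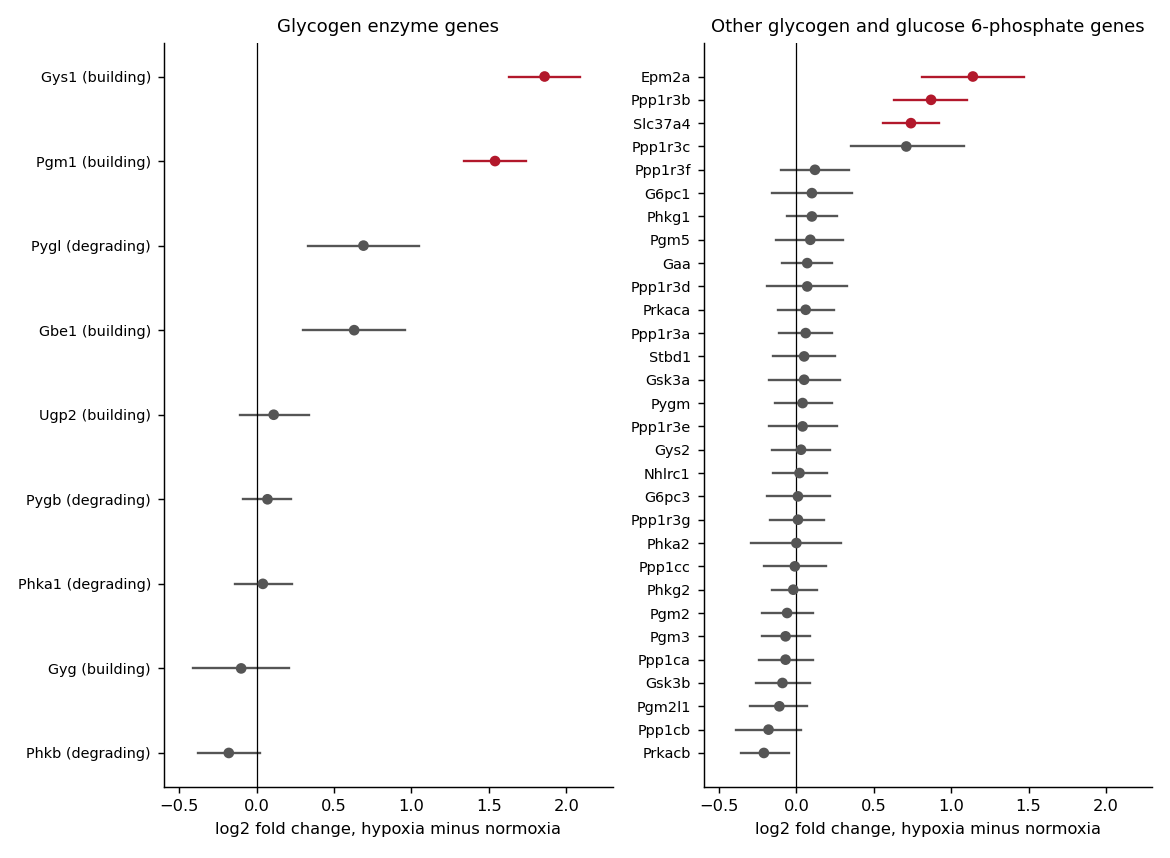
Log2 fold change, hypoxia minus normoxia, with 95% intervals from limma, for the 9 glycogen enzyme genes and for 30 other genes of glycogen and glucose 6-phosphate handling. Genes called at an adjusted p under 0.05 are in red, namely Gys1, Pgm1, Epm2a, Ppp1r3b and Slc37a4, and most other intervals include 0. Among the genes not called, the intervals of Gbe1, Pygl and Ppp1r3c lie above 0. That of Prkacb, listed with the control of breakdown, lies below 0, at -0.36 to -0.05 (adjusted p = 0.409 from limma).

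No other measured isoform of these enzymes passed the test. Gys2, the liver-type synthase, had a log2 fold change of 0.03 (95% interval -0.16 to 0.22), with its log2 intensity between 4.55 and 4.78 on all 6 arrays. Of the other phosphoglucomutase family genes, Pgm2 had -0.06, Pgm2l1 -0.11, Pgm3 -0.07 and Pgm5 0.09, and none passed the test. The kinase subunits Phka2, Phkg1 and Phkg2 had 0.00, 0.10 and -0.02. The synthase kinases Gsk3a and Gsk3b, which inhibit glycogen synthase, had 0.05 and -0.09. Lysosomal breakdown of glycogen runs through acid alpha-glucosidase, whose gene Gaa had 0.07. Among the genes of this paragraph, Gys2, Pgm5 and Phkg1 had group means below the median of all features, 5.89. The processing can shrink differences of genes this dim, so their values near 0 do not show that these transcripts were unchanged.

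Likeness to Gys1 was measured as the distance between log2 values centred on each gene's own mean over the 6 arrays, over all 30176 genes. The 5 nearest genes with an established symbol were Slc2a1 (distance 0.26), Ero1a (0.28), Egln1 (0.29), Prelid2 (0.30) and Ak4 (0.30), with log2 fold changes of 1.67 to 2.0. They encode the glucose transporter GLUT1, an endoplasmic reticulum oxidase, a HIF prolyl hydroxylase, a protein of the PRELI family and a mitochondrial adenylate kinase. Among the 9 genes, Pgm1 was next to Gys1 at position 8 (distance 0.45), followed by Pygl at position 69 (1.49) and Gbe1 at position 73 (1.52). Gyg and Phkb lay farthest, at 2.43 and 2.51. The distance counts the size of the difference between conditions as well as the spread between cultures, and it is given as a description.

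**Figure D4:**
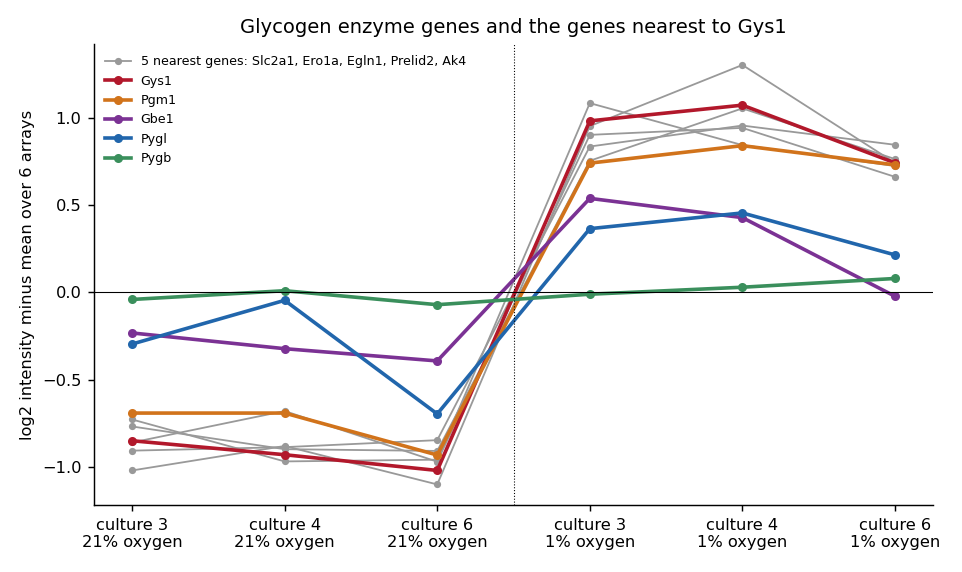
Log2 intensity minus each gene's mean over the 6 arrays, for Gys1, Pgm1, Gbe1, Pygl and Pygb (colours) and the 5 genes nearest to Gys1 (grey); lines only join the points of a gene. Gys1 and Pgm1 run with the grey lines, Gbe1 and Pygl differ by 0.63 and 0.69 between the conditions, where Gbe1 did not pass the test and Pygl passed only with the block, and Pygb differs by 0.07.

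The cultures were checked against markers of the labelled cell type and of others. Of 11 microglia markers 10 had a row, all 10 above the median of all features, and their mean log2 value was 11.20 to 11.24 in normoxia and 11.15 to 11.18 in hypoxia. Of these 10, 4 had a log2 fold change above 0, with a median of -0.05 and 0 called. Their mean differed by -0.07, -0.02 and -0.09 within cultures 3, 4 and 6. Astrocyte markers (9 of 10 with a row) averaged 5.91 to 6.14 in normoxia and 6.11 to 6.29 in hypoxia, with 5 of 9 above that median. All 9 had a log2 fold change above 0, with a median of 0.13 and 0 called, and their mean differed by 0.15, 0.05 and 0.19 within cultures 3, 4 and 6. Markers of fibroblasts and pericytes (11 of 12) averaged 6.91 to 8.17 and 7.42 to 8.40, and 10 of 11 were higher in hypoxia with a median log2 fold change of 0.41, 0 of them called without the block and 2 with it. Their mean differed by 0.24, 0.57 and 0.34 within cultures 3, 4 and 6. Over all genes, 0.209% were called higher without the block and 0.421% with it. Of all 30176 genes, 18030 had a log2 fold change above 0. In 4 sets of 7544 genes, ordered from dim to bright, the median log2 fold change was 0.06, 0.06, 0.03 and -0.07. Marker lists were not tested against genes of similar brightness, so the signs of their medians do not show that a cell type rose or fell. Markers of endothelial cells, the oligodendrocyte lineage and neurons had median log2 fold changes of 0.11, 0.06 and 0.05, with 8 of 8, 7 of 7 and 5 of 6 above 0 and 0 called. The part of these cells in the values of the glycogen genes was not tested.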

How the data were processed

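Total RNA of 3 primary microglial cultures at each oxygen level was hybridised to 6 one-colour arrays. The deposited values are log2 intensities, and the submitters' processing notes list RMA, build mm10, limma and Affymetrix Expression Console, with neither versions nor roles. RMA corrects background, normalizes arrays to a common distribution and summarises the probes of a feature, which can shrink differences of dim genes. Any filter the authors used is not given in these sources. The paper supplied with the series describes endothelial cells, so design and processing were taken from the labels. Signal over background was not given, and array medians lay between 5.84 and 5.92. No 2 arrays held identical values, and arrays of a group correlated at 0.987 to 0.993.

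Of 72688 features, 6732 carried only a number as identifier and were not used. The 30638 transcript clusters with a single symbol in the platform annotation, of 65956 in all, gave 30176 genes (brightest row for 354 genes with several). Positions are from RefSeq GRCm38.p6. Hypoxia was compared with normoxia with limma 3.58.1 (lmFit, eBayes) in R 4.3.3. P-values were adjusted by Benjamini-Hochberg over the 30176 genes, and calls needed an adjusted p under 0.05. Intervals are 95% intervals of that fit. The code was tested on simulated data. The main fit had no block. The labels give both conditions the same culture numbers, and deviations from the group means correlated at 0.566, 0.397 and 0.223 within cultures and at -0.498 to 0.141 between them, so the fit with the culture as a block is given where it changes a call or moves a count. P-values rest on the spread between 3 pooled cultures. No p-value was adjusted over the 9 genes or any list alone.

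The 9 genes, the list of other genes and the tests were chosen with earlier results of these data known. The text names the 9 genes, every listed gene that passed, the 4 listed genes with the largest change and the 5 genes nearest to Gys1 (predicted transcripts and small RNAs left out by symbol). Other listed genes, such as sister genes of the members, were named after their values were seen. Alternatives were the block, each array left out, median centring, quantile normalization, cyclic loess, a filter on dim genes, array weights, a trended and robust variance prior, the mean of a gene's rows, and all 65956 transcript clusters. Groupings without Pgm1, without Gys1 and Pgm1, and without Gys1, Pgm1 and Pygl were added after the values were seen.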

Additional observations from a re-analysis of the deposited data

How the results depend on the processing

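Gys1 and Pgm1 kept their direction and their call under all 15 alternatives, with log2 fold changes of 1.79 to 1.96 and 1.46 to 1.62 and a highest adjusted p of 0.00926 for each. Over the 9 genes and 15 alternatives, 130 of 135 values kept direction and side of the threshold. The exceptions were Pygl, which passed with the replicate block (0.69, adjusted p = 0.0457), Gbe1, which passed without the hypoxia array of culture 6, and 3 changes of sign in Gyg and Phka1, neither of which passed in any of these fits. With 1 array left out, Pygl ranged from 0.51 to 0.84, Gbe1 from 0.52 to 0.80, Ugp2 from 0.04 to 0.17, Pygb from 0.04 to 0.09, Phkb from -0.25 to -0.12, Gyg from -0.20 to 0.03 and Phka1 from -0.01 to 0.08. The building genes exceeded the degrading genes by 0.62 to 0.70 with 1 array left out and by 0.65 to 0.66 under the other normalizations, but by 0.47 with Pgm1 in neither group by 0.06 with Gys1 and Pgm1 in neither, and by 0.24 with Gys1, Pgm1 and Pygl in neither.

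Over all genes, 63 were called higher and 5 lower. The replicate block gave 127 and 35, array weights 116 and 32, and leaving out 1 array 27 to 40 and 1 to 16, the latter without the hypoxia array of culture 3. Lower genes numbered 2 after median centring and 3 after cyclic loess. On the list of other glycogen genes the 3 higher calls became 0 to 2 with 1 array left out, and 0 without the normoxia or the hypoxia array of culture 6. The filter on dim genes, set at the median of all features, removed Ppp1r3c from that list, and also Gys2, Ppp1r3a, Ppp1r3e, Phkg1, Pgm5 and G6pc1. With 3 arrays per group, the interval of Ugp2 still allows a log2 fold change of 0.34 and that of Phkb a fall to -0.38.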
